A study of Mus musculus with 9 samples.

Results

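The genes described here encode the proteins of the cytosolic ribosome, as measured by RNA sequencing in mouse embryos of the late blastocyst stage. Members were the table rows with a gene name of the form Rpl or Rps followed by a number, together with Rplp0, Rplp1, Rplp2 and Rpsa. Names of the S6 kinases and rows marked as pseudogenes by "-ps" in the name were left out. This gave 91 members among 16070 rows. Sorted by hand, 77 were the usual ribosomal proteins, 31 of the small 40S subunit and 46 of the large 60S subunit, and are called core members below. A further 13 were paralogs or retrocopies, of which the annotation lists 6 as pseudogenes (Rpl32l, Rpl37rt, Rps3a2, Rps3a3, Rps4l and Rpl6l). The remaining one, Rps19bp1, encodes a protein that binds Rps19 and is no ribosomal protein; the name pattern caught it. The ribosomal proteins Fau and Rack1 fall outside the naming rule and are given separately.

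The embryos were of the C57BL/6 strain, grown in vitro, and collected 4.5 days after microinjection. There were 3 groups of 3 libraries: wild type (WT), a histidine substitution at arginine 17 of histone H3 (H3R17H), and loss of Carm1, the arginine methyltransferase that acts on this residue (Carm1-/-). The series title places the question in Yap signalling and early development. The extraction notes speak of a single cell and the source of an embryo. Neither says that the libraries of a group came from separate embryos. Under the H3R17H and Carm1-/- labels, replicate 1 held Y-linked RNA and replicates 2 and 3 did not (values below). Replicate 1 of these labels was thus not from the same embryo as replicates 2 and 3. Whether the other libraries of a group shared an embryo is not known. The p-values therefore measure the spread between these libraries, which may be technical in part. Values are FPKM, fragments scaled to transcript length and to the mapped fragments of the library, as deposited, and the depth of each library is unknown.

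Some facts of the whole series bear on every result. Carm1 stood at 8.86, 7.08 and 6.65 FPKM across WT, 1.88, 0.02 and 1.22 FPKM under the H3R17H label, and 6.44, 12.7 and 9.52 FPKM under the Carm1-/- label. The level was thus low under the H3R17H label and not under the Carm1-/- label, and the sample descriptions carry the names Carm and Hist in the same crossed way. Groups are called by their labels throughout, and every direction below is that of a label, which these values do not tie to its genotype. The 4 Y-linked genes summed to between 28.1 and 36.6 FPKM in WT, in replicate 1 labelled H3R17H and in replicate 1 labelled Carm1-/-. They summed to at most 0.00796 FPKM in the other 4 libraries, where Xist, the RNA of the silent X chromosome, stood between 16.6 and 32.5 FPKM. Among the 5 libraries with Y-linked RNA, Xist stood at 0.19 to 0.43 FPKM in WT and 0.26 FPKM in replicate 1 labelled Carm1-/-. It was higher, at 4.84 FPKM, in replicate 1 labelled H3R17H, which thus held both. All 3 WT libraries held Y-linked RNA, so embryo sex and label are partly confounded. Over all 11850 tested genes the median difference from WT was -0.03 on the log2 scale for the H3R17H label and -0.04 for the Carm1-/- label. In these libraries a change in the make-up of the sample and a change of RNA per cell cannot be told apart.

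A ribosome is built from a small subunit, which holds the messenger RNA and reads its codons, and a large subunit, which joins amino acids and lets the new chain leave through an exit tunnel. Each subunit needs its proteins in matched amounts, assembled onto ribosomal RNA in the nucleolus. The messenger RNAs of vertebrate ribosomal proteins typically begin with a cytosine followed by a run of pyrimidines, the 5′ terminal oligopyrimidine (TOP) motif, through which the kinase complex mTORC1 and the protein Larp1 control their translation. The preimplantation embryo makes large numbers of new ribosomes after its own genome becomes active.

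The start of transcription of 10 core members is printed, from RefSeq on GRCm38.p6, to look for that motif. Each line holds the 10 bases before the RefSeq start and the first 20 transcribed bases, and runs of at least 6 C or T are in capitals. The first 5 genes had the largest, and the last 5 the lowest, difference from WT in the libraries labelled H3R17H among core members with an entry.
Rpl39 (chrX:37085203-37085232, minus strand): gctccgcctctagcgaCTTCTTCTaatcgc
Rpl41 (chr10:128549149-128549178, minus strand): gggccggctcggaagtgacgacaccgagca
Rpl38 (chr11:114668570-114668599, plus strand): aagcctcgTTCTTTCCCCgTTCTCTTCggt
Rpl36a (chrX:134585644-134585673, plus strand): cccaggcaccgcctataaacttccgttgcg
Rplp2 (chr7:141447641-141447670, plus strand): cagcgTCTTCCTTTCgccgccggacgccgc
Rpl7a (chr2:26910797-26910826, plus strand): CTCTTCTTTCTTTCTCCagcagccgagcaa
Rpl13a (chr7:45128726-45128755, minus strand): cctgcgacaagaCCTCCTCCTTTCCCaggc
Rps6 (chr4:86857348-86857377, minus strand): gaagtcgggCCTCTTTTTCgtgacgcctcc
Rpl4 (chr9:64173377-64173406, plus strand): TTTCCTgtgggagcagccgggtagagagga
Rpl10a (chr17:28328461-28328490, plus strand): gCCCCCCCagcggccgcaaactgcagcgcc
Pyrimidine runs stand at or near the start of genes from both ends of the order, for example Rpl38 and Rplp2 at one end and Rpl13a and Rps6 at the other. Rpl41 and Rpl36a, which are among the 5 largest differences, hold no such run in this window. GENCODE places the outer end of several of these genes upstream of the window, for example Rpl41 at 128549305 and Rpl39 at 37085402. Other starts than those printed are therefore possible. The runs of Rpl4 and Rpl10a lie wholly before the RefSeq start, outside the transcribed bases. Only Rpl38, Rplp2 and Rps6 had a C at that start followed by 4 C or T.

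RefSeq promoter entries, which run from 250 bases before to 50 bases after the start, matched 67 of the 91 members and 57 of the 77 core members. A C at the start followed by 4 C or T was present in 12 of those 57 (21.1%) and in 2.49% of all 27025 gene symbols with an entry. That share depends on how exactly the start is placed. With the run allowed to begin within 2, 5 or 10 bases of the RefSeq start, it was 33.3%, 45.6% and 54.4% of core entries. The shares of all symbols were then 8.96%, 18.5% and 30.8%. CTTTC on the gene's strand, from 30 bases before to 50 after the start, was present in 28 (49.1%) against 10.1%. TTCCGG, on either strand of the 300 bases, was present in 29 (50.9%) against 15.2%. CACGTG, which reads the same on both strands, was present in 5 (8.77%) against 7.24%. CTTTC and TTCCGG can share bases as CTTTCCGG, which occurred in 2 core entries (3.51%) against 0.192%. The 4 main searches, with the start run taken at the exact start, were kept after the shares of 13 lettered motifs and 4 window widths around the start had been seen. A match describes the letters and is not evidence that a factor binds there.

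In WT the ribosomal protein genes were among the most abundant transcripts, with 27 of them in the 100 rows of highest mean FPKM. Among those of highest level were Rps2, at 2377 ± 427 FPKM (SD, n = 3), which lies by the messenger RNA entry site, and Rps18, at 2009 ± 357 FPKM, of the head of the 40S subunit. The spreads of Rps2 and Rps18 overlap, as do those of Rplp0 (1754 ± 294 FPKM) and Rpl4 (1732 ± 136 FPKM), which follow them. The lowest core members were Rps15a at 34.0 ± 7.83 FPKM, Rpl22 at 36.3 ± 5.79 FPKM and Rps20 at 78.0 ± 21.0 FPKM. The ribosome holds a single copy of most of these proteins, while levels of their messenger RNAs here ran from 34.0 FPKM for Rps15a to 2377 FPKM for Rps2 among the members named. FPKM is already divided by transcript length, and the transcript models the authors used are not given. Many of these genes have near-identical pseudogenes and the treatment of reads that match several places is not given either, so levels of single members are uncertain.

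As a share of all FPKM, the 91 members held 10.6%, 11.8% and 9.64% in WT replicates 1 to 3. Under the H3R17H label they held 13.4%, 14.6% and 14%, and under the Carm1-/- label 8.62%, 15% and 13.2%. Every library labelled H3R17H was above every WT library, while the Carm1-/- label joined the lowest and the highest library of all 9. The group means were 10.7 ± 1.08%, 14 ± 0.6% and 12.3 ± 3.29% (SD, n = 3 each). The summed FPKM of core 60S members over that of core 40S members was 1.23, 1.19 and 1.19 in WT, 1.24, 1.25 and 1.26 for the H3R17H label, and 1.23, 1.30 and 1.20 for the Carm1-/- label. Both subunits were thus higher or lower together within a library.

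**Figure D1:**
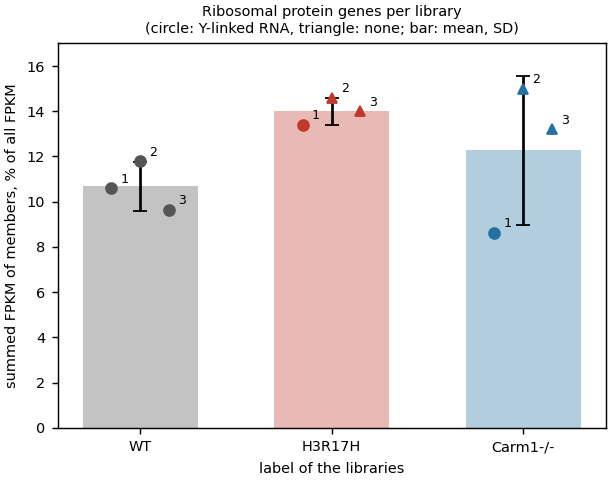
Summed FPKM of the 91 members as a percentage of all FPKM of the library (y axis), by label (x axis). Points are libraries with their replicate number, circles hold Y-linked RNA and triangles do not, bars are means and whiskers 1 SD (n = 3); replicate 1 labelled Carm1-/-, at 8.62%, is the lowest library and replicate 2 of that label, at 15%, the highest.

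In the libraries labelled H3R17H, 89 of the 91 members had higher mean values than in WT on the log2(FPKM + 1) scale, against 47.7% of all tested genes. The median difference of the members was 0.41, and that of all tested genes was -0.03. In 64 members all 3 of these libraries lay above all 3 WT libraries, a pattern found in 13.3% of all tested genes, and in 0 members did all 3 lie below, against 15.6%. All 31 core 40S members were higher (median 0.46), as were 45 of 46 core 60S members (median 0.41). No single gene passed limma at an adjusted p of 0.05, with the Benjamini-Hochberg adjustment taken over all tested genes, neither a member nor any other gene (0.0% of 11850). At an unadjusted p under 0.05, 29 members were higher and 0 lower, against 6.41% and 7.75% of all tested genes. With the presence of Y-linked RNA, a mark of embryo sex, as a term of the fit, 74 members were higher, by a median of 0.16, and 17 of the 89 turned lower, 16 of them autosomal. No WT library lacked Y-linked RNA, so that term was set by replicate 1 of each other label against its replicates 2 and 3. Member medians relative to WT in replicates 1 to 3 were 0.36, 0.53 and 0.39 under the H3R17H label. Under the Carm1-/- label they were -0.33, 0.61 and 0.30, so all values with the sex term lean on its replicate 1. When the fit held only the WT and H3R17H-labelled libraries, 6 members passed, all higher (0.945% of all genes passed in that direction): Rpl41, Rplp2, Rps29, Rpl39l, Rps27 and Rplp1. When replicate 1 labelled Carm1-/- alone was left out of the shared fit, 4 members passed (0.574%): Rpl41, Rplp2, Rps29 and Rps27.

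Member by member, the largest differences were in small proteins of the large and small subunits. Rpl41, a 60S peptide that is among the smallest proteins of the cell (chromosome 10, 128548114 to 128549305, minus strand of GRCm38), measured 1350, 1878 and 1532 FPKM in WT. It stood at 3791, 4497 and 3809 FPKM under the H3R17H label. The groups did not overlap, and the difference was 1.35 on the log2 scale (SE 0.50, limma with Benjamini-Hochberg adjustment, adjusted p = 0.291). Over the alternative settings its adjusted p ranged from 0.0143 to 0.823, and the difference was 0.56 with the sex term.

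Rps29, a zinc-binding protein of the 40S head, stood at 493.9, 825.9 and 582.5 FPKM across WT, against 1203, 1538 and 1972 FPKM under the H3R17H label. The 2 ranges did not overlap, and the difference was 1.31 (SE 0.45, adjusted p = 0.264 in limma, 0.0382 to 0.785 over the alternatives). Rpl38, a 60S protein whose loss in the mouse alters the axial skeleton, stood at 176.4, 268.3 and 250.1 FPKM in WT. Its values were 377.7, 553.1 and 678.1 FPKM under the H3R17H label, all above WT, with a difference of 1.19 (SE 0.51, limma adjusted p = 0.339). Both were smaller with the sex term, at 0.53 for Rps29 and 0.23 for Rpl38.

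The P stalk, the flexible arm of the 60S subunit that recruits the GTPases of translation, is formed by Rplp0 with copies of Rplp1 and Rplp2. Rplp2 stood at 306.3, 428.3 and 274.9 FPKM across WT, against 671.7, 778.7 and 664.9 FPKM under the H3R17H label. The difference was 1.09 (SE 0.32, limma adjusted p = 0.235, 0.038 to 0.703 over the alternatives), with no overlap. Rplp1 stood at 983.4, 1468 and 842.3 FPKM across WT, against 2138, 2058 and 2073 FPKM under the H3R17H label, a difference of 0.97 (SE 0.26, limma adjusted p = 0.224). These 3 values lie close together and above the highest WT library. Rplp0, which anchors the arm to ribosomal RNA, stood at 1913, 1934 and 1414 FPKM and at 2324, 2184 and 2415 FPKM, a difference of 0.41 (SE 0.19, limma adjusted p = 0.363). The groups did not overlap for any of the 3 stalk genes, as for 64 of all 91 members and 13.3% of all tested genes in that direction. Rplp2 differed by 0.65, Rplp1 by 0.74 and Rplp0 by 0.32 once the sex term was in the fit.

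The 5S particle, in which Rpl5 and Rpl11 carry 5S ribosomal RNA and which can bind Mdm2 when free, differed less. Rpl5 stood at 627.3, 626.9 and 586.6 FPKM across WT, against 684.3, 792.2 and 731.6 FPKM under the H3R17H label, without overlap (0.26, SE 0.20, limma adjusted p = 0.583). Rpl11 stood at 478.6, 587.4 and 416.6 FPKM and at 611.7, 486.1 and 631.9 FPKM, with overlap (0.23, SE 0.22, limma adjusted p = 0.667). Their differences with the sex term were -0.01 for Rpl5 and 0.09 for Rpl11. The 7 listed proteins at the rim of the exit tunnel (Rpl17, Rpl19, Rpl23a, Rpl26, Rpl31, Rpl35 and Rpl39) were all higher without overlap (13.3% of all tested genes), by a median of 0.40. Of 9 listed genes mutated in Diamond-Blackfan anaemia, an inherited failure of red cell production, all 9 were higher (median 0.52) and 7 lay above WT without overlap, again beside 13.3% of all tested genes.

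The 4 core members with the lowest differences had coding sequences of at least 609 bases. Rpl3, which reaches the peptidyl transferase centre, stood at 982.4, 854.6 and 807.8 FPKM across WT, against 975.3, 729.7 and 940.7 FPKM under the H3R17H label. The difference was -0.01 (SE 0.18, limma adjusted p = 0.993), and its sign turned under several alternatives. Rpl10a differed by 0.02, Rpl4, which lines the exit tunnel, by 0.04, and Rps6, the target of the S6 kinases, by 0.09. For each of these the groups overlapped.

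**Figure D2:**
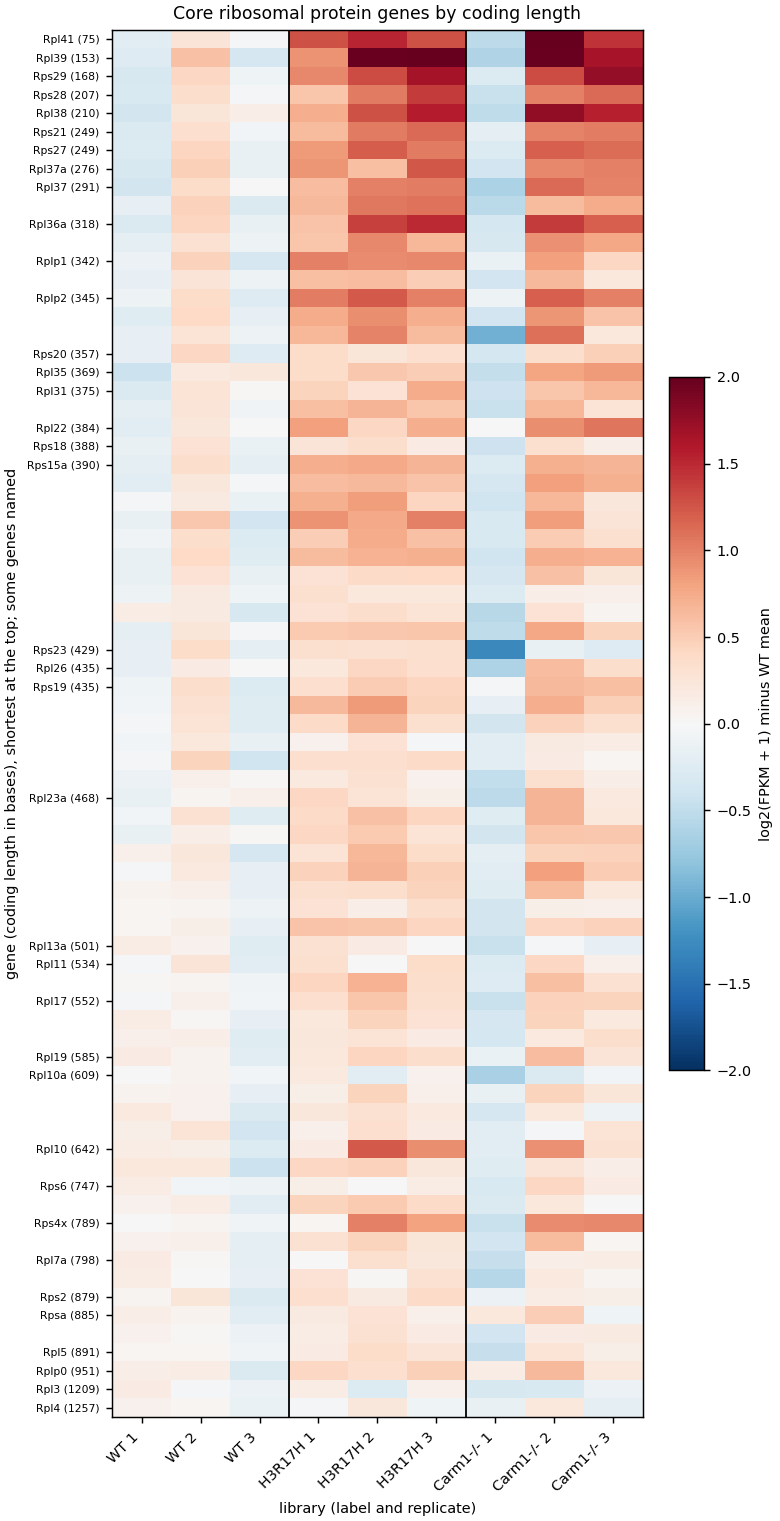
Colour gives log2(FPKM + 1) minus the WT mean for 75 of the 77 core members (rows, shortest coding sequence at the top; genes named in the text are marked, with the length in bases in brackets) in the 9 libraries (columns); colours end at -2 and 2. The top rows are darkest red in the 3 libraries labelled H3R17H and in replicates 2 and 3 labelled Carm1-/-, and replicate 1 labelled Carm1-/- is blue in most rows.

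In the libraries labelled Carm1-/-, 71 of 91 members had higher means than in WT (46.3% of all tested genes), by a median of 0.18, and 20 had lower means (53.7%), but the 3 libraries did not go together. Replicate 1 had only 3 members above their WT mean, and its member median was -0.33. Replicates 2 and 3 had 83 and 78 above it, with medians of 0.61 and 0.30. No gene passed limma with adjustment (0.0% of 11850), and 3 members, Rplp2, Rpl39l and Rpl22, were higher at an unadjusted p under 0.05 (5.25% of all genes) and 0 were lower (6.19%). In 0 members were all 3 libraries above WT (6.91% of all genes), and 2, Rpl10a and Rpl32l, had all 3 below (9.71%).

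Without replicate 1 labelled Carm1-/-, which is a choice made after its values were seen, 83 members were higher and the median was 0.44. In 55 members both remaining libraries were above all 3 WT libraries, against 19.6% of all tested genes, and in 3 both were below, against 22.8%. Without replicate 2 of that label 45 of 91 members were higher, with a median of 0.0, and without replicate 3 there were 65, with a median of 0.11. Without replicate 1, 14 members passed limma with adjustment, all higher (2.5% of all genes passed in that direction), among them Rpl41, Rpl38, Rps29, Rplp2, Rps27, Rpl39, Rpl37, Rpl36a and Rpl22. The counts without replicate 1 rest on 2 libraries that both lack Y-linked RNA. With the sex term and all libraries, 20 of 91 members were higher under the Carm1-/- label, and the median turned to -0.10.

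Rpl41 shows the pattern, at 1094, 6259 and 4296 FPKM under the Carm1-/- label, the first below every WT library and the second the highest of all 9 libraries. Its difference from WT was 0.97 (SE 0.50, limma adjusted p = 0.479) with all 3 libraries and 1.72 (adjusted p = 0.00748) without replicate 1, with 0.00748 to 0.996 over all alternatives. Rps29 stood at 511.6, 1539 and 2101 FPKM, a difference of 0.93 (SE 0.45, limma adjusted p = 0.450). Rplp2 stood at 308.9, 758.6 and 668.5 FPKM, a difference of 0.70 (SE 0.32, limma adjusted p = 0.432). For both, replicate 1 lay within the WT range and replicates 2 and 3 above it. With the sex term the differences were 0.18 for Rpl41, 0.15 for Rps29 and 0.27 for Rplp2.

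Rpl22, a 60S protein known for its role in T cell development, stood at 30.5, 42.1 and 36.3 FPKM across WT, against 35.9, 69.7 and 76.7 FPKM under the Carm1-/- label. Replicate 1 lay within the WT range and the others above it, and the difference was 0.67 (SE 0.30, limma adjusted p = 0.434). Rps23, which sits near the decoding centre, went the other way at 250.4, 550.8 and 511.9 FPKM, against 543.5, 786.9 and 536.5 FPKM in WT. That difference was -0.57 (SE 0.29, limma adjusted p = 0.478), and replicate 2 overlapped WT. Rpl10a stood at 149.2, 191.9 and 226.9 FPKM, below 233.2, 246.3 and 227.5 FPKM in WT, a difference of -0.33 (SE 0.21, limma adjusted p = 0.540). The nearest libraries of the 2 labels, at 226.9 and 227.5 FPKM, were almost equal. The differences of Rpl22 and Rps23 were 0.41 and -0.93 with the sex term.

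Set directly against each other, 5 of 91 members were higher in the libraries labelled Carm1-/- than in those labelled H3R17H (49.0% of all tested genes) and 86 lower (51.0%), with a median of -0.27. No gene passed limma with adjustment (0.0%), and 3 members were lower at an unadjusted p under 0.05 (4.12% of all genes). In 0 members were all 3 Carm1-/- libraries above (5.13%), and 9 members had all 3 Carm1-/- libraries below all 3 H3R17H libraries (6.07% of all genes). Rplp1 was one of them, at 978.3, 1888 and 1430 FPKM against 2138, 2058 and 2073 FPKM. Without replicate 1 labelled Carm1-/-, 48 members were higher and the median was 0.01, so the difference between the labels rested on that library.

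The X chromosome carries 4 core members: Rpl10, which helps to complete the catalytic centre, Rpl36a, near the exit site of transfer RNA, Rpl39, at the mouth of the exit tunnel, and Rps4x, of the 40S body. Rps4x (102184941 to 102189394, minus strand of GRCm38) measured 720.0, 745.0 and 679.9 FPKM across WT, 731.9, 1437 and 1251 FPKM under the H3R17H label, and 527.3, 1382 and 1386 FPKM under the Carm1-/- label. The 4 libraries without Y-linked RNA were all at 1251 FPKM or more and the 5 with it all at or below 745.0 FPKM. Rpl39 followed the same split, at 121.9, 220.0 and 116.0 FPKM in WT, 274.2, 578.3 and 628.8 FPKM under the H3R17H label, and 96.30, 577.5 and 461.4 FPKM under the Carm1-/- label.

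Rpl36a stood at 197.8, 327.8 and 218.2 FPKM across WT, 358.0, 627.7 and 682.6 FPKM under the H3R17H label, and 190.1, 636.9 and 555.2 FPKM under the Carm1-/- label. Rpl10 stood at 1086, 1056 and 810.6 FPKM, at 1099, 2278 and 1869 FPKM, and at 835.8, 1841 and 1212 FPKM. In all 4 genes the lowest library without Y-linked RNA was above the highest with it. This split was not limited to the X chromosome: 16 of the 87 autosomal members showed it too, among them Rpl38, Rps29, Rps28, Rpl37, Rps27, Rps21 and Rpl41. Over all tested genes, 3.03% had the 4 libraries without Y-linked RNA above the other 5, and 2.78% had them below, which no member did. Of 383 other X-linked genes 67 had them above and 6 below. The median of the 4 X-linked members was 0.37 above WT in replicate 1 labelled H3R17H, which held Y-linked RNA, and 1.30 and 1.21 in the other two of that label.

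With sex as a term of the limma fit, the estimated difference between libraries without and with Y-linked RNA was 0.87 for Rpl10 to 1.77 for Rpl39. The adjusted p for these genes ran from 0.144 for Rps4x to 0.35 in limma. Some autosomal members had estimates of the same size, at 1.43 for Rpl38, 1.19 for Rpl41 and 1.17 for Rps29. The sex term alone was positive for 88 of the 91 members, by a median of 0.40, and passed for none. The same counts over all tested genes are not given here, so these do not set the members apart. The median of the 383 other tested X-linked genes, relative to WT, was 0.024 and 0.156 in replicates 2 and 3 labelled H3R17H. It was 0.224 and 0.308 in replicates 2 and 3 labelled Carm1-/-. In replicate 1, which held Y-linked RNA, it was -0.249 under the H3R17H label and -0.046 under the Carm1-/- label. Against WT, the differences under the H3R17H label were 1.66 for Rpl39 (SE 0.60, limma adjusted p = 0.282), 1.14 for Rpl36a (SE 0.43, 0.301), 0.78 for Rpl10 (SE 0.32, 0.331) and 0.62 for Rps4x (SE 0.37, 0.469), where the last number in each bracket is the adjusted p. With the sex term these became 0.48, 0.31, 0.20 and -0.14.

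The 73 autosomal core members, taken alone, had a median of 0.41 under the H3R17H label and 0.17 under the Carm1-/- label. Per library, with the one that held Y-linked RNA first, the autosomal medians were 0.38, 0.45 and 0.39 for the H3R17H label and -0.34, 0.59 and 0.27 for the Carm1-/- label. The first library was thus near the other two under one label and far below them under the other. For the 9 core members of up to 300 coding bases the medians were 0.85, 1.21 and 1.28 under the H3R17H label, with the first the lowest. The part of embryo sex in these differences cannot be told apart from that of the label, since no WT library lacked Y-linked RNA.

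**Figure D3:**
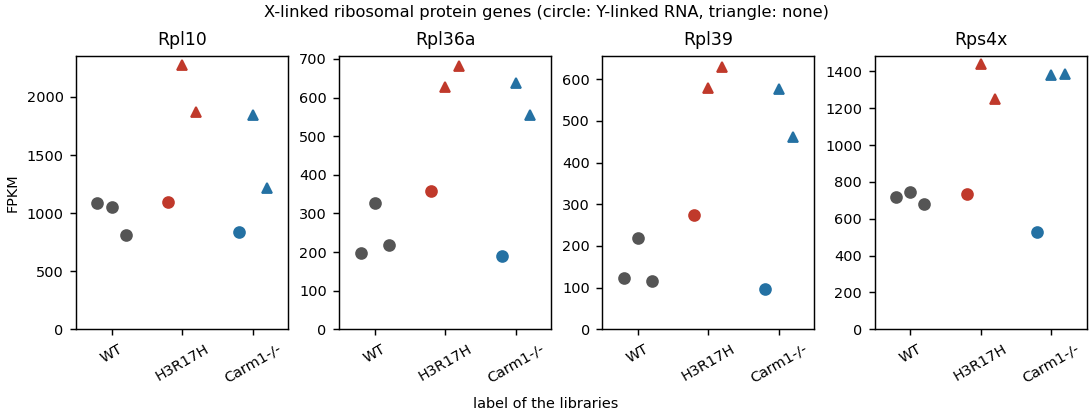
FPKM (y axes, each from 0) of the 4 X-linked members in each library, by label (x axis); circles hold Y-linked RNA and triangles do not. In each panel the 4 triangles lie above the 5 circles, for Rps4x at 1251 to 1437 FPKM against 527.3 to 745.0 FPKM.

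The size of the difference followed the length of the coding sequence, taken as the median over annotated transcripts, a relation noticed in the data. Over the 77 core members, the difference between the H3R17H label and WT correlated with log coding length at Pearson r = -0.79 and Spearman rho = -0.75. For the Carm1-/- label these were -0.69 and -0.64. The correlations are across genes that share the same libraries and are given as a description. The median difference under the H3R17H label was 1.03 for the 9 core members of up to 300 coding bases, 0.59 for 32 of 301 to 450, 0.35 for 16 of 451 to 600, and 0.23 for 20 that are longer. All 9 of the shortest class (Rpl37, Rpl37a, Rpl38, Rpl39, Rpl41, Rps21, Rps27, Rps28 and Rps29) lay above WT without overlap under that label, as did 13.3% of all tested genes and 51 of 304 other coding genes of that length.

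Other coding genes of the same lengths showed a much flatter order, with medians of 0.07 (304 genes), 0.02 (607), -0.04 (744) and -0.09 (8094). Among other genes of at least 100 FPKM, a level nearer to that of the members, the medians were 0.18 (96), 0.08 (144), -0.03 (125) and -0.02 (519). Under the Carm1-/- label the core medians were 0.68, 0.25, 0.16 and 0.03 from the shortest class to the longest. By library, r was -0.77, -0.71 and -0.74 for the H3R17H label and 0.24, -0.73 and -0.75 for the Carm1-/- label. Replicate 1 labelled Carm1-/- thus lacked the relation, as its shortest class (median -0.45) and its longest (-0.31) were both below WT. The WT libraries also differed among themselves by length, with medians of the shortest class at -0.31, 0.36 and -0.05. FPKM divides by a length set by the authors' transcript models, and the cause of this pattern was not tested. After a trend with coding length was removed from every library, the median of the 85 members with a coding length was 0.46 for the H3R17H label, with 85 of 85 higher, and 0.23 for the Carm1-/- label.

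**Figure D4:**
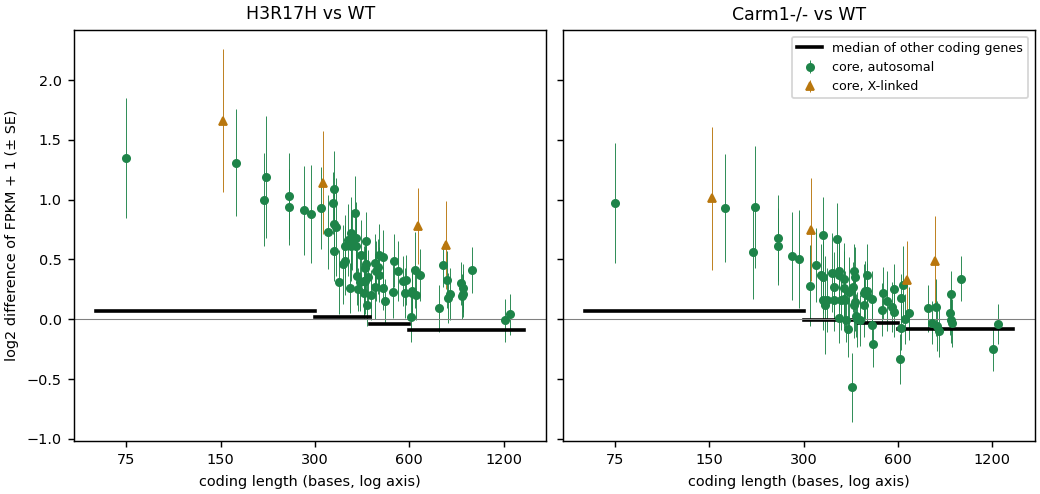
Difference from WT in log2(FPKM + 1), with its SE, against coding length (log axis) for the 77 core members, for the H3R17H label (left) and the Carm1-/- label (right); circles are autosomal, triangles X-linked, and black bars are medians of other coding genes by length class. The shortest members stand highest in both panels, at a median of 1.03 on the left and 0.68 on the right.

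Paralogs give some ribosomes an alternative protein, often with tissue-restricted use. Rps27l, a p53 target in other settings, stood at 425.3, 700.6 and 594.1 FPKM across WT, against 786.3, 770.2 and 825.4 FPKM under the H3R17H label (0.50, SE 0.25, limma adjusted p = 0.395). Its ratio to Rps27 was 1.29, 1.31 and 1.65 in WT and 1.10, 0.836 and 1.0 under the H3R17H label, all below WT, while under the Carm1-/- label it was 1.58, 1.03 and 0.892. Rps27 itself differed by 1.03 under the H3R17H label, more than Rps27l, and neither passed. Rps27l differed by 0.25 with the sex term.

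Rpl39l, best known from spermatogenesis, stood at 132.7, 140.7 and 110.4 FPKM across WT, against 233.0, 264.5 and 214.1 FPKM under the H3R17H label, without overlap (0.89, SE 0.26, limma adjusted p = 0.237). Rpl10l, an intronless copy of Rpl10 also used in male germ cells, stood at 39.6, 57.8 and 85.2 FPKM and at 187.7, 144.5 and 94.7 FPKM, without overlap but with a wide spread (1.22, SE 0.73, limma adjusted p = 0.471). Rpl39l differed by 0.58 and Rpl10l by 0.39 with the sex term. Rps4l, annotated as a processed pseudogene of Rps4x, stood at 533.4, 428.2 and 331.7 FPKM and at 459.5, 367.3 and 387.6 FPKM, with overlap (-0.07, SE 0.22, limma adjusted p = 0.910). The ratios of Rpl39l, Rpl36al, Rps4l, Rpl10l, Rpl22l1 and Rpl7l1 to their parents overlapped between every pair of labels. The 13 paralogs together had 12 higher under the H3R17H label, by a median of 0.32. Of 92 tested "-ps" rows 76 were higher, by a median of 0.36, and how reads were divided between these rows and their parent genes is not known.

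Genes that act around the ribosome were taken from lists of the ribosome pathway. Of 52 tested ribosome assembly factors, 47 were higher under the H3R17H label, by a median of 0.42. In 29 all 3 libraries lay above WT (13.3% of all tested genes) and in 1 all 3 lay below (15.6%). The snoRNP protein Rrp9 stood at 60.6, 44.9 and 34.4 FPKM across WT, against 95.8, 141.6 and 72.0 FPKM under that label. All 14 listed genes of RNA polymerase I, which makes ribosomal RNA, were higher, by a median of 0.36. None of these genes passed limma with adjustment. Under the Carm1-/- label 44 of 52 assembly factors were higher (median 0.28) and 12 of 14 polymerase I genes (median 0.38).

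Other parts of the translation machinery were closer to WT. Of 17 other TOP messenger RNAs, a list that includes Fau and Rack1, 12 were higher under the H3R17H label (median 0.19). Among them Eef1a1, the abundant elongation factor, stood at 2856, 3182 and 2452 FPKM across WT, against 2179, 2516 and 2757 FPKM under that label, with overlap. Npm1, a nucleolar chaperone on both lists, stood at 613.3, 546.8 and 421.3 FPKM and at 1115, 1223 and 814.0 FPKM, without overlap. Of 36 initiation factors 24 were higher (median 0.07), of 28 mTORC1 pathway genes, Rps6 among them, 16 (median 0.07), and of 77 mitochondrial ribosomal proteins 34 (median -0.02). Fau and Rack1 differed by 0.22 and 0.21.

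**Figure D5:**
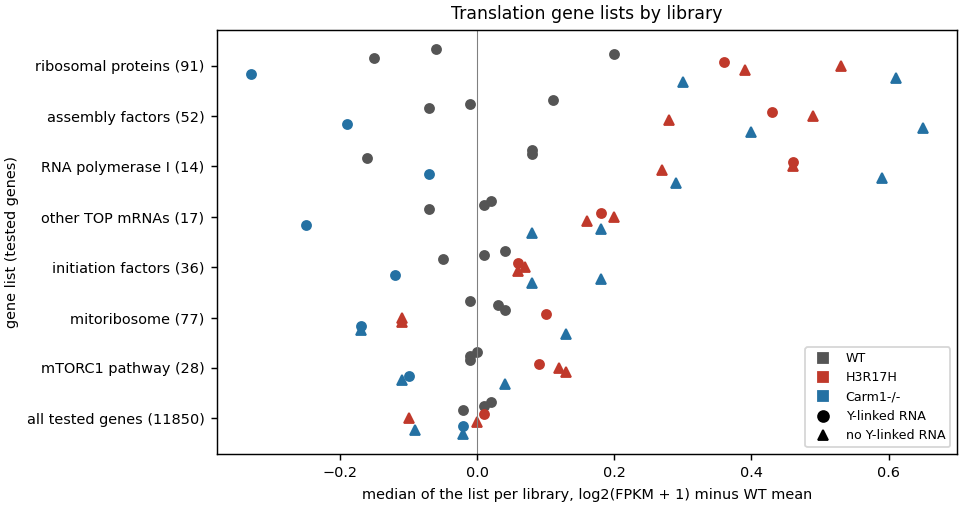
Each point is the median over 1 gene list in 1 library of the log2(FPKM + 1) difference from the mean of WT (x axis), with the number of tested genes per list (y axis); colours give the label, circles hold Y-linked RNA and triangles do not. For ribosomal proteins the libraries labelled H3R17H lie at 0.36 to 0.53, and replicate 1 labelled Carm1-/- lies lowest at -0.33.

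The cell types of the blastocyst were checked through their markers. Of 12 trophectoderm markers, all in the table and 11 tested, 9 were lower under the H3R17H label (median -0.95) and 10 under the Carm1-/- label (median -0.83). Their summed level, led by Krt18 and Krt8, was 5580, 6020 and 8380 FPKM in WT, 1650, 1680 and 4610 FPKM under the H3R17H label, and 8840, 2060 and 2580 FPKM under the Carm1-/- label. The 4 highest sums belonged to the 4 libraries with the lowest member shares, and replicate 1 labelled Carm1-/- had both the highest marker sum and the lowest share. The epiblast markers summed to 194 to 272 FPKM in WT, 207 to 237 FPKM under the H3R17H label and 144 to 294 FPKM under the Carm1-/- label, and all 10 were in the table. Of these 10, 7 were lower under the H3R17H label (median -0.50) and 6 under the Carm1-/- label (median -0.14). Those of primitive endoderm, 8 of 9 in the table, summed to 166 to 217, 140 to 175 and 85.7 to 176 FPKM. Of the 7 tested, 5 were lower under each label, with medians of -0.46 and -0.32. The part of tissue make-up in the ribosomal protein differences was not tested. For cells that could cling to an embryo or enter a sample, Amhr2 was the one listed gene of 9 cumulus and granulosa cell markers, at 1.77 to 9.70 FPKM. Thy1 of 8 fibroblast markers reached at most 1.59 FPKM, Hba-a1 of 6 blood markers at most 4.09 FPKM, and the 4 listed sperm markers summed to at most 4.99 FPKM.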

How the data were processed

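RNA of 9 libraries, 3 per label, was deposited by the authors as FPKM values in 1 table, per the file headers, where each library has its column; groups come from the sample titles. The submitters' processing notes list mm10 and GRCm38 as builds, and Bowtie 0.12.2. Which quantifier and annotation were used, how multi-mapped reads were treated and whether rows were filtered is not given in the sources used here. Low FPKM values showed no steps of whole reads, so depth and counting error are unknown.

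Values were tested as log2(FPKM + 1), which understates the change of low genes, in genes that reached 1 FPKM in 3 or more of the 9 libraries, 11850 of 16070 rows and all 91 members. This filter was set on all 9 libraries in every fit. One limma fit (limma 3.58.1 in R 4.3.3, intensity trend) of all 9 libraries gave 3 contrasts, adjusted by Benjamini-Hochberg over all tested genes, with calls at 0.05. A two-sided exact permutation of 3 against 3 libraries cannot go below 0.1. The fit was first tested on simulated data. Other steps used pandas 2.3.3, matplotlib 3.10.9 and numpy 2.4.6 in Python 3.11.15. Every value column of the table was used.

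The members, the gene lists, the tests and the sex term were chosen with earlier results of these data known. The sorting of members into core, paralog and other, the length classes, the trend with coding length, and the motifs were chosen after the values were seen. The rule for named genes took the P stalk, the 5S particle, paralog pairs, X-linked members, members past the threshold, the 5 largest and 5 lowest differences and the 5 highest and lowest levels, the genes of smallest p in each list, 3 at most, and ribosomal proteins outside the naming rule such as Fau and Rack1. Not every gene it names is reported, a few single genes are not reported here although they count in every sum and test, and genes named as examples of lists or as members of a length class were chosen after their values were seen. Positions and coding lengths are from GENCODE M21 on GRCm38, matched by symbol for 91 and 85 members. Start sequences are from RefSeq on GRCm38.p6, whose starts can differ from those of GENCODE. Each alternative changed a single choice: the pseudocount (0.1 or 5), the filter (none, or a mean of 5 FPKM), other scalings, no trend, array weights, only the 2 groups compared, a replicate block, a sex term, each library left out and, added after seeing the data, removal of the length trend.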

Additional observations from a re-analysis of the deposited data

How the results depend on the processing

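The median difference of the H3R17H label was 0.16 with the sex term. Under the Carm1-/- label the members with a higher value numbered 20 with the sex term. For Carm1-/- vs H3R17H they numbered 3 with a common total over the other rows, 12 with quantile normalization, 10 with array weights and 3 without the length trend. With only the 2 groups compared, 6 members passed as higher under the H3R17H label, against 0. No alternative run called a member lower. The mean share under the H3R17H label was 15.3% without the 10 most abundant other rows. The causes were not tested.

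Of all genes under the H3R17H label, 1 was called higher with a pseudocount of 5, 88 higher and 104 lower with array weights, and 112 higher and 128 lower with only the 2 groups. For Carm1-/- vs WT, array weights called 1 gene higher and a pseudocount of 0.1 called 1 lower. For Carm1-/- vs H3R17H, 1 gene was called higher with a pseudocount of 5, median-of-ratios scaling, quantile normalization or no length trend, and 2 with no intensity trend. There 1 was called lower with a pseudocount of 0.1, median-of-ratios scaling, quantile normalization, no intensity trend or no length trend.

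Leaving out each library in turn, the H3R17H label gave 0 to 68 genes higher and 0 to 57 lower, 0 to 4 members higher past the threshold, 87 to 90 members with a higher value and medians of 0.34 to 0.52. The Carm1-/- label gave 0 to 296 and 0 to 253 genes, 0 to 14 members, 45 to 83 members with a higher value and medians of 0.0 to 0.44, the lowest without replicate 2 of that label. Carm1-/- vs H3R17H gave 0 to 3 and 0 to 7 genes, 0 to 48 members with a higher value and medians of -0.44 to 0.01. The upper counts of genes and members past the threshold came without replicate 1 labelled Carm1-/-.

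With the sex term 17 members turned from higher to lower and 2 from lower to higher under the H3R17H label, 16 and 2 of them autosomal, and 51 turned lower under the Carm1-/- label, 47 of them autosomal. With that term Rpl5 stood at -0.01 and Rps4x at -0.14 under the H3R17H label, and Rpl39 at -0.17 under the Carm1-/- label. Rpl3 under the H3R17H label stood at 0.03 with median-of-ratios scaling, 0.02 with array weights, 0.04 with the sex term, 0.05 without the length trend, and -0.08 to 0.12 when single libraries were left out, positive without WT replicate 1 (0.07) or replicate 2 labelled H3R17H (0.12). Rps4l stood at 0.15 with the sex term and at -0.25 to 0.10 with single libraries left out, positive without WT replicate 1.

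With the replicate number as a block, 0 genes passed in every comparison, 89, 71 and 5 members had higher values, and the medians stayed at 0.41, 0.18 and -0.27. Deviations from the label means correlated at r from -0.0501 to 0.183 between same-numbered libraries and from -0.247 to 0.274 between others. These values cannot decide whether the numbers link libraries, and the labels do not say. With 3 libraries a label and no depth, differences of single members were not resolved in the fit of all 9 libraries. This held for large ones too, such as Rpl39 under the H3R17H label (1.66, SE 0.60, limma adjusted p = 0.282).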

Other observations

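Ddit4, an inhibitor of mTORC1 that is induced by stress, stood at 5.34, 1.04 and 0.73 FPKM across WT, 12.2, 30.3 and 11.5 FPKM under the H3R17H label and at 3.92, 35.3 and 15 FPKM under the Carm1-/- label. The 5 libraries above WT were those in which the ribosomal protein genes held the largest shares of FPKM. Its difference under the H3R17H label was 2.62 on the log2 scale (SE 0.73, limma adjusted p = 0.226) and did not pass. Cdkn1a, a cell cycle inhibitor and p53 target, stood at 127.7, 127.0 and 112.6 FPKM across WT, 258.8, 360.4 and 175.4 FPKM under the H3R17H label and at 192.9, 499.1 and 286.7 FPKM under the Carm1-/- label, above WT in all 6 (limma adjusted p = 0.257 and 0.266). Mycn, at low levels throughout, stood at 4.51, 4.60 and 3.28 FPKM across WT. It stood at 0.51, 0 and 1.03 FPKM under the H3R17H label, without overlap (limma adjusted p = 0.241), as did 15.6% of all tested genes in that direction. Under the Carm1-/- label Mycn stood at 3.62, 2.81 and 0 FPKM, with overlap (limma adjusted p = 0.507). These genes were picked from the lists by the smallest p in a comparison.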
